A study of Saccharomyces cerevisiae with 4 samples.

Results

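The silent mating loci HML and HMR, the active mating-type locus MAT and the ends of chromosome 3 that surround them were examined in budding yeast. The members were 442 windows of 150 bp on chromosome 3, of 80474 nuclear windows and 81046 windows in all. The rule that picks them uses position and no measured value: 134 windows at the left end, from base 1 to 20100, which hold HML, 67 windows around MAT, from 195001 to 205050, and 241 windows at the right end, from 280501 to 316650, which hold HMR. HML was taken as the 4.05 kb from base 10951, MAT as the 3 kb from 198001 and HMR as the 3.15 kb from 291901. Positions are those of the files, with the first base as 1, and the files' genome build is not named in the sources used here, so no window was assigned to a gene.

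Chromatin was immunoprecipitated and sequenced from the haploid laboratory strain BY4741, grown in the rich medium YPD to mid-log phase. One antibody recognised H3T45p, the form of histone H3 that carries a phosphate on threonine 45, and the other the C terminus of H3 with or without that phosphate. Both were used on cells treated with 200 mM hydroxyurea for 2 h and on cells with no hydroxyurea. Hydroxyurea inhibits ribonucleotide reductase and stalls replication forks, and the series concerns the kinase Cdc7, which fires replication origins. Each of the 4 groups was 1 library, the titles number the hydroxyurea libraries 1 and the untreated libraries 2, and a batch marked by those numbers and the treatment cannot be told apart.

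Haploid yeast cells express the mating-type genes that stand at MAT. HML and HMR hold complete copies of alpha and a genes, but these copies are kept silent by Sir proteins, which assemble on nucleosomes from the E and I silencers that bracket each locus. Sir proteins also coat chromatin next to telomeres, and both kinds of silent chromatin replicate late as a rule. BY4741 is of mating type a, while the reference sequence carries the alpha genes at MAT.

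In the order of the RefSeq R64 annotation, HMLALPHA2 and HMLALPHA1 lie between VBA3 on the telomere side and CHA1, the catabolic serine deaminase, on the centromere side. MATALPHA2 and MATALPHA1 lie between BUD5, which acts in bud-site choice, and TAF2, a subunit of the general transcription factor TFIID. HMRA2 and HMRA1 lie between OCA4 on the centromere side and a tRNA gene and GIT1, a glycerophosphoinositol transporter, on the telomere side. The alpha2 protein represses a-specific genes, alpha1 activates alpha-specific genes, and a1 acts with alpha2 in diploids to repress haploid-specific genes.

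The libraries held 23588153 (H3T45p) and 28690293 (H3) reads in windows in hydroxyurea, and 25105783 and 27319637 in untreated cells. The values are the authors' deposited signals, which are reads per window divided by 1 factor per library, so they measure shares of a library and not amounts per cell. The median nuclear window had an H3T45p signal of 289 in untreated cells and 283 with the drug, and an H3 signal of 280 and 277. Windows whose H3 signal reached 25% of the genome median in both conditions were kept. This kept 347 of the 442 members and 70662 of the nuclear windows. Over all kept nuclear windows the log2 ratio of summed H3T45p over summed H3 was -0.15 in untreated cells and 0.04 in hydroxyurea. With 1 library per group there was no replicate check and no test; the 95% intervals below are exact binomial (Clopper-Pearson) for ratios and normal on the log scale for differences, and they cover counting error only.

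Much of the 3 mating loci carried no reads at all. In all 4 libraries 22 members were at 0, which is 4.98% of the members against 3.76% of nuclear windows. Of these, 21 lay within the loci, where they made up 10 of the 27 windows of HML, 9 of the 20 of MAT and 2 of the 21 of HMR. The longest run at 0 covered 1350 bp from 12451 at HML, 1350 bp from 199651 at MAT and 300 bp from 293251 at HMR. A count of 0 allows up to 3 reads per window, or a signal of 2.72 to 3.41. HML and MAT of the reference share long identical stretches, and all 3 loci share shorter ones, so a read from them has no single place. How the authors placed such reads is not stated, and the part of shared sequence in these zeros was not tested.

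The H3 minimum left few windows within the loci: 5 of 27 at HML, 7 of 20 at MAT and 7 of 21 at HMR. Over the whole of their sides more windows were kept. These were 39 of 53 on the telomere side of HML and 30 of 34 on its centromere side. They were 68 of 76 on the centromere side of HMR and 112 of 124 on its telomere side. The loss of windows did not stop at the locus limits. On the telomere side of HML no window from 9901 up to the locus was kept. On the centromere side of HMR those from 291151, 291301, 291451 and 291601 were not kept. Next to HMR on its telomere side, those from 295051, 295201 and 295351 were kept. H3 was below the genome median at both silent loci, but not only there. In untreated cells the median kept window was also below it at MAT (227) and over both sides of HML (177) and of HMR (215). Mean H3 signal over kept windows was 109 at HML and 102 at HMR in untreated cells, and 141 and 118 in hydroxyurea. At MAT it was 422 and 347, but windows at its edge carried that mean. The median kept window at MAT had an H3 signal of 227 in untreated cells, against 114 at HML and 91.6 at HMR, and the lowest at MAT had 93.5. These are levels per window of equal length, and windows under the H3 minimum are left out of them. Over all windows, those at 0 included, mean untreated H3 was 34.0 at HML, 49.5 at HMR and 155 at MAT. It was 215, 250 and 336 over the sides of HML, HMR and MAT.

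**Figure D1:**
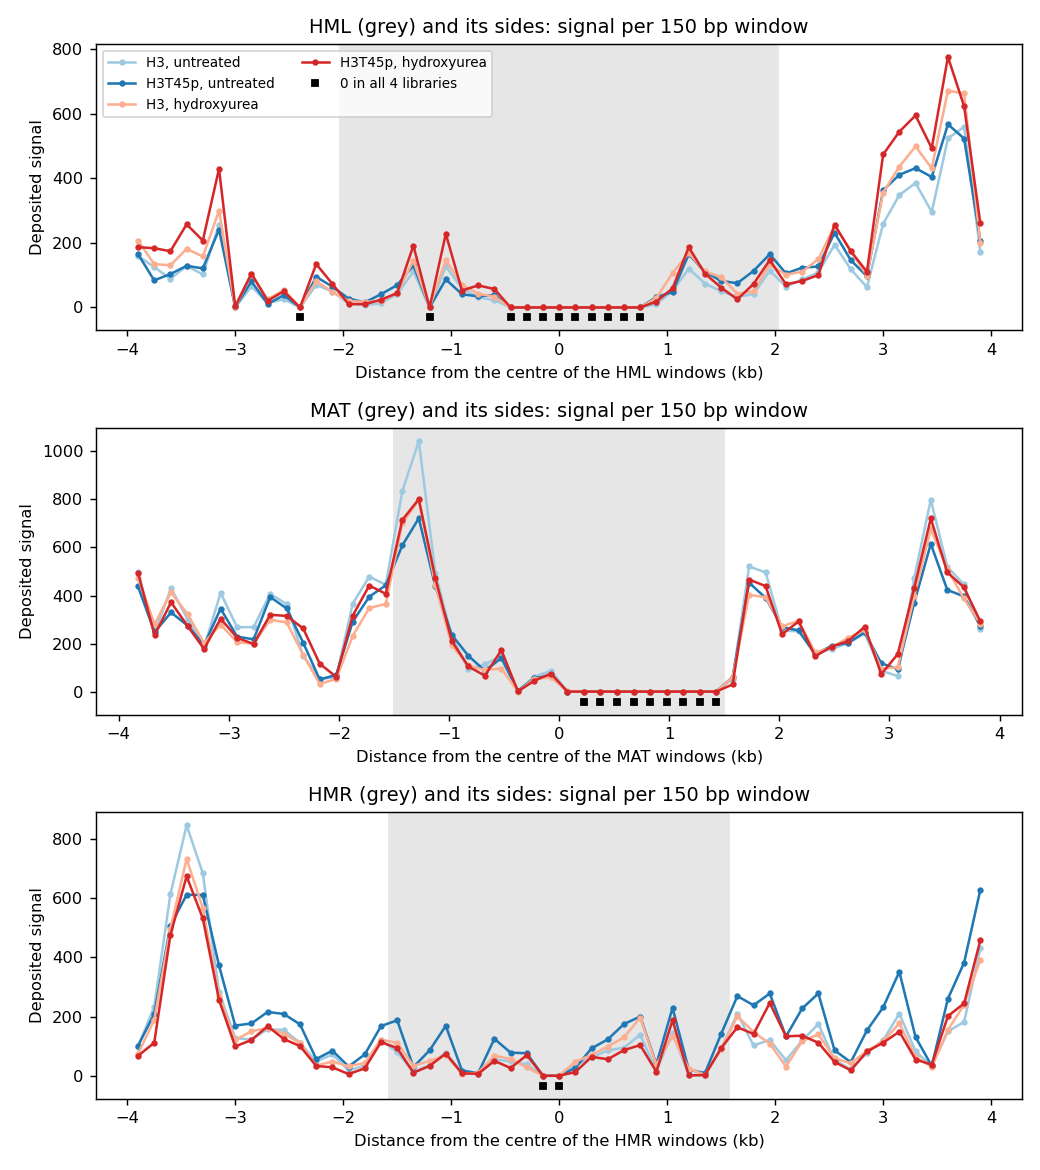
Deposited signal (y axis) of each 150 bp window against its distance in kb from the centre of HML, MAT and HMR (x axis), 1 line per library, with each locus in grey and windows at 0 in all 4 libraries as black squares. At HMR and on its telomere side the untreated H3T45p line lies above the other 3 in most windows, whereas at MAT the 4 lines run close together apart from the 2 tallest windows, where untreated H3 is highest.

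In untreated cells HMR was the mating locus where H3T45p departed most from H3. Mean signal over its 7 kept windows in untreated cells was 175 for H3T45p and 102 for H3. In hydroxyurea it was 99.3 for H3T45p and 118 for H3. H3T45p was thus the higher of the signals in untreated cells and the lower one in hydroxyurea. The log2 ratio was 0.78 (0.65 to 0.91) in untreated cells and -0.25 (-0.40 to -0.10) in hydroxyurea, a change of -1.03 (-1.23 to -0.83). Adding 50% of the median to both signals gave an untreated ratio of 0.38 and a change of -0.49. The change was carried by H3T45p, which was lower in hydroxyurea by 0.82 on the log2 scale (change -0.82, -0.96 to -0.67), while H3 was higher by 0.22 (0.07 to 0.36).

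Single windows of HMR varied around these means. In the window from 291901 to 292050, at the centromere edge of HMR, H3T45p was 187 in untreated cells and 93.3 in hydroxyurea, with H3 at 79.8 and 111. In the window from 294151 to 294300, H3T45p was 200 in untreated cells and 104 in hydroxyurea, with H3 at 139 and 196. The window from 294451 was the closest to no change, with H3T45p at 229 and 188 and H3 at 145 and 135. Over the 7 kept windows the untreated log2 ratio ran from 0.52 to 1.23 (SD over windows 0.29). The ratio in hydroxyurea ran from -0.92 to 0.48 (SD 0.52). These SDs are spread within a library, not between cultures. The ranges did not overlap in the kept windows, but they did with windows under the H3 minimum. The window from 293551 had -0.43 in untreated cells, and that from 293101 had 1.31 in hydroxyurea.

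The pattern held when sparser windows were added. HMR had 14 windows with 10 or more reads in every library, and these include the 7 kept ones. H3T45p exceeded H3 in 13 of them in untreated cells and in 4 in hydroxyurea. The ratio was lower in hydroxyurea in 13 and the H3T45p signal in all 14. Such counts were not made over all nuclear windows, for HMR or for the segments below.

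HMR also holds sequence that a MATa strain carries a second time at MAT. Reads from the a genes at the active locus would then be placed at HMR, so the 1.05 kb from 293551, between windows at or near 0, may mix the active and the silent copy and these cannot be told apart. In its 4 kept windows the log2 ratio was 0.65 in untreated cells and -0.37 in hydroxyurea. Outside that stretch and the near-empty windows, the 3 remaining kept windows gave 1.00 (0.78 to 1.22) and -0.04 (-0.29 to 0.21), a change of -1.04 (-1.37 to -0.71). The change was as large there as over the whole locus.

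HML did not show this. Mean signal over its 5 kept windows in untreated cells was 131 for H3T45p and 109 for H3, and 171 and 141 in hydroxyurea, so both signals were higher with the drug. The log2 ratio was 0.27 (0.10 to 0.43) in untreated cells and 0.28 (0.14 to 0.43) in hydroxyurea, a change of 0.02 (-0.20 to 0.23). The H3 signal was higher in hydroxyurea by 0.37 on the log2 scale and H3T45p by 0.38.

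The parts of HML on either side of its windows at 0 differed from each other. On the telomere side of the zeros the 2 kept windows had a log2 ratio of -0.13 in untreated cells and 0.53 in hydroxyurea. On the centromere side the 3 kept windows had 0.51 and 0.08. The near-zero change of the whole locus thus combines a change of 0.66 (0.32 to 1.00) and one of -0.43 (-0.71 to -0.14), a split chosen after its values were seen. In the window from 11851 to 12000 H3T45p was 86.8 in untreated cells and 228 in hydroxyurea with H3 at 127 and 146. In the window from 14251 to 14400 H3T45p was 110 and 105 with H3 at 73.9 and 111.

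With sparser windows of HML added, the direction differed from its whole-locus change. HML had 15 windows with 10 or more reads in every library, and these include the 5 kept ones. H3T45p exceeded H3 in 12 of them in untreated cells and in 8 in hydroxyurea. The ratio was lower in hydroxyurea in 11. Summed over those windows the log2 ratio was 0.45 in untreated cells and 0.11 in hydroxyurea. HML thus gives no direction that holds over the choice of windows.

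The kept windows of MAT ran the opposite way to HMR. Whether they hold the mating-type genes is not known, since no window was assigned to a gene. All 7 kept windows lay from 198001 to 199050, before the windows at 0, so the rest of MAT gave no value. Mean signal over its 7 kept windows in untreated cells was 340 for H3T45p and 422 for H3, and 363 and 347 in hydroxyurea. The log2 ratio was -0.31 (-0.39 to -0.24) in untreated cells and 0.07 (-0.02 to 0.15) in hydroxyurea, a change of 0.38 (0.27 to 0.49). Here H3 was the signal that differed more, lower in hydroxyurea with a change of -0.28, against 0.10 for H3T45p.

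The value of MAT rests on its BUD5-side edge. In the window from 198151 to 198300, H3T45p was 722 in untreated cells and 801 in hydroxyurea, with H3 at 1043 and 798. In the window from 198601 to 198750, H3T45p was 149 and 105, with H3 at 93.5 and 109. With the locus narrowed by 450 bp at each edge, which drops the tallest windows, the log2 ratio of MAT was 0.07 in untreated cells and 0.19 in hydroxyurea.

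Set against the kept windows of MAT, which lie at its edge, HMR was higher in untreated cells by 1.09 (0.94 to 1.24) on the log2 ratio. In hydroxyurea HMR was lower than they were, at -0.32 (-0.49 to -0.15). HML was higher than MAT in both conditions, by 0.58 (0.40 to 0.76) and 0.22 (0.05 to 0.38). HMR was higher than HML by 0.51 (0.30 to 0.72) in untreated cells and stood at -0.54 (-0.74 to -0.33) relative to it in hydroxyurea. So in their kept windows HML and HMR, both silent, differed from each other in each condition by more than counting error. This difference was not itself rerun under the alternative settings. Over those settings HML ran from -0.01 to 0.47 in untreated cells and from 0.09 to 0.31 in hydroxyurea. HMR ran from 0.38 to 1.00 and from -0.35 to -0.04.

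Against its own sides HMR was higher in untreated cells by 0.52 (0.39 to 0.66), and its change was lower than theirs, at -0.75 (-0.95 to -0.55). HML was above its sides by 0.23 (0.07 to 0.39) in untreated cells and by 0.07 (-0.07 to 0.22) in hydroxyurea, the latter an interval that includes 0. MAT was below its sides in untreated cells, at -0.21 (-0.29 to -0.12), and near them in hydroxyurea, at 0.05 (-0.03 to 0.14). Some of these signs depended on the processing: narrowed by 450 bp MAT was above its sides in untreated cells, by 0.21, with H3 class medians subtracted HML was below its sides, at -0.06, and with loci widened by 450 bp HML minus MAT was -0.04 in hydroxyurea.

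**Figure D2:**
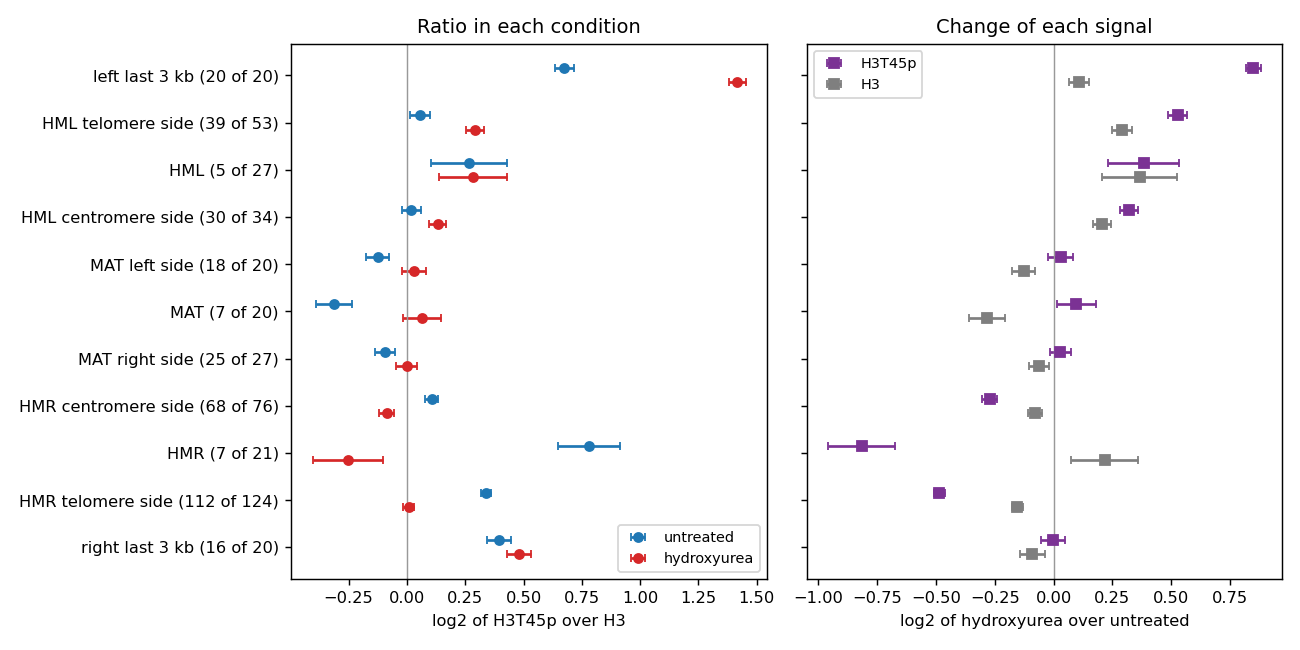
Left, log2 ratio of summed H3T45p over summed H3 signal (x axis) for each segment (y axis, with kept windows of all windows) in untreated cells and hydroxyurea. Right, log2 of hydroxyurea over untreated for each signal alone; bars are 95% intervals of counting error. HMR has the highest untreated ratio (0.78) and the lowest H3T45p change (-0.82), and every segment at the left end has an H3T45p change above 0.

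The excess of H3T45p over H3 in untreated cells was not limited to HMR: the block ratio described below was above 0 in 22 of 23 blocks of the right end. Its median over all blocks was -0.08. On the telomere side of HMR (from 295051 to 313650) mean signal over 112 kept windows in untreated cells was 347 for H3T45p and 274 for H3, and 248 and 246 in hydroxyurea. The log2 ratio was 0.34 (0.32 to 0.36) in untreated cells and 0.01 (-0.02 to 0.03) in hydroxyurea. Of 124 windows with 10 or more reads in every library, H3T45p exceeded H3 in 113 in untreated cells and in 60 in hydroxyurea. The H3T45p signal was lower in hydroxyurea in 118. Over all kept nuclear windows the median log2 ratio was -0.02 in untreated cells and 0.00 in hydroxyurea. The median H3T45p change there was 0.02.

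The centromere side of HMR (11.4 kb from 280501) had a smaller excess. Mean signal over its 68 kept windows in untreated cells was 288 for H3T45p and 268 for H3, and 239 and 254 in hydroxyurea. The log2 ratio was 0.11 (0.08 to 0.13) in untreated cells and -0.09 (-0.12 to -0.06) in hydroxyurea. The telomere side was above the centromere side by 0.23 (0.20 to 0.27) in untreated cells and by 0.09 (0.05 to 0.13) in hydroxyurea. This is a difference of the averages of the sides and not a steady rise: in untreated cells the 1.5 kb blocks 6.15 and 4.65 kb from the end had ratios of 0.11 and 0.09.

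The sides of HML differed from those of HMR in direction. On the telomere side of HML (7.95 kb from 3001) mean signal over 39 kept windows in untreated cells was 219 for H3T45p and 211 for H3, and 316 and 258 in hydroxyurea. The log2 ratio was 0.06 (0.01 to 0.10) and 0.29 (0.25 to 0.33). On the centromere side of HML (15001 to 20100) it was 0.02 (-0.02 to 0.06) in untreated cells and 0.13 (0.10 to 0.17) in hydroxyurea. Both signals were higher in hydroxyurea on both sides, H3 by 0.29 and 0.21 and H3T45p by 0.53 and 0.32 on the log2 scale.

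Taken over both sides, the region around HMR was above that around HML by 0.22 (0.19 to 0.25) in untreated cells and stood at -0.24 (-0.27 to -0.21) relative to it in hydroxyurea. The difference of the changes was -0.46 (-0.51 to -0.41). The sides of MAT lay near the genome in both conditions, with log2 ratios of -0.11 and 0.01. The H3 change differed between the ends too: it was 0.25 around HML and -0.13 around HMR, and its part in the difference of the H3T45p signals was not tested.

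The last bases of both ends carried the strongest H3T45p of the region. The first 3 windows of the chromosome, 1 to 450, had mean H3T45p signals of 1747 in untreated cells and 4266 in hydroxyurea with H3 at 219 and 195, so H3T45p was 7.98 times H3 and 21.9 times H3. The last window, 316501 to 316650, had H3T45p at 761 and 1802 with H3 at 48.2 and 37.2, ratios of 15.8 and 48.5. Its H3 values rest on 49 and 41 reads. In both terminal stretches H3T45p was higher in hydroxyurea while H3 was slightly lower.

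The strongest part of this terminal signal ended within a few windows. At the left end the log2 ratio was 3.76 in untreated cells and 5.29 in hydroxyurea at 151 to 300, and -0.41 and 0.46 at 451 to 600. In hydroxyurea the ratio stayed above 0 up to base 1200, with 0.70 from 751 and 0.77 from 901, and was -0.21 from 1201. At the right end the window from 316351 to 316500 had 1.14 and 2.16, and its neighbour from 316201 to 316350 had -0.06 and 0.16. Subtelomeres of different chromosomes share repeats, so reads there may come from several ends, and these cannot be told apart.

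The authors' peak lists mark these terminal stretches and 1 place next to HMR. The hydroxyurea list of 630 peaks has 3 in the region, at 1 to 450, at 295501 to 295650 and at 316351 to 316650. The untreated list of 87 has 2, at 1 to 450 and at 316501 to 316650. The peak from 295501 to 295650, next to HMR, had H3T45p at 133 in both conditions with H3 at 52.2 in untreated cells (53 reads) and 30.8 in hydroxyurea (34 reads), so it lies under the H3 minimum. No peak of either list lay within HML, MAT or HMR.

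Blocks of 10 windows (1.5 kb) with 3 or more kept windows set the region against the genome. The block ratio is log2 of mean H3T45p over mean H3 with 28.3, 10% of the genome median, added to both, and a block was called at 0.5 or more in either direction. Of 7697 blocks 39 were members, 11 at the left end, 5 around MAT and 23 at the right end. Blocks with too few kept windows were not tested: those from 10501 and 12001, which hold most of HML, that from 199501 in MAT and that from 292501 in HMR.

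In untreated cells 5 of the 39 blocks were called higher, 1 at the left and 4 at the right end, where 0.169% of all blocks were. None was called lower, against 2.59% of all blocks. In hydroxyurea 2 were called higher, the terminal block of each end, against 1.43% of all blocks, and none lower, against 0.013%. For the change, 1 was called higher, at the left end, against 5.6% of all blocks, and 4 lower, all at the right end, against 0.364%. Each of the 4 blocks called lower for the change was also one of the 4 called higher at the right end in untreated cells. With a pseudocount of 50% of the median, 1 member was called higher in untreated cells, of 7 such blocks in all, and 1 lower for the change, the only one of all 7697.

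Those 4 blocks lay at HMR and on its telomere side. The block from 291001 to 292500, across the centromere edge of HMR, had a log2 ratio of 0.69 untreated and -0.09 in hydroxyurea. The block from 294001 to 295500, across its telomere edge, had 0.65 and 0.02. The next block toward the telomere, 295501 to 297000, had 0.72 and -0.09. Its H3T45p signal was 248 in untreated cells and 118 in hydroxyurea with H3 at 140 and 127, and its H3T45p change of -0.92 was the lowest of all 7697 blocks. That value rests on 5 kept windows of 10. Of its windows under the H3 minimum, that from 295501, an authors' peak, had H3T45p at 133 in both conditions. The window from 296701 had 131 in untreated cells and 54.6 in hydroxyurea. The fourth, 306001 to 307500, lay 9.15 kb from the end and had 0.65 and -0.02.

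The right end as a whole differed less than these 4 blocks, and in the same direction in 21 of 23 blocks. Over its 23 blocks the median log2 ratio was 0.35 in untreated cells and -0.03 in hydroxyurea, against -0.08 and 0.01 over all blocks. The H3T45p signal was lower in hydroxyurea in 22 of 23 blocks and H3 in 15. The exception for H3T45p was the terminal block from 315001 to 316500, with a log2 ratio of 0.35 untreated and 0.73 in hydroxyurea. The median change of H3T45p was -0.35 and of H3 -0.12, against 0.05 and -0.05 over all blocks. H3 was thus lower in hydroxyurea in the median block of the genome too. How many of all 7697 blocks lay on each side of 0 was not counted, here or for the counts of blocks by sign elsewhere.

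At the left end the median block ratio was 0.08 in untreated cells and 0.21 in hydroxyurea. H3T45p was lower in hydroxyurea in 1 of 11 blocks and H3 in 1 of 11, with median changes of 0.40 and 0.30. The terminal block from 1 to 1500 had a log2 ratio of 1.05 untreated and 2.18 in hydroxyurea. The block from 13501 to 15000, within HML at its centromere edge, had 0.42 and 0.07. It was the left-end block with the lowest change (-0.35). Around MAT the medians were -0.11 and 0.02.

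**Figure D3:**
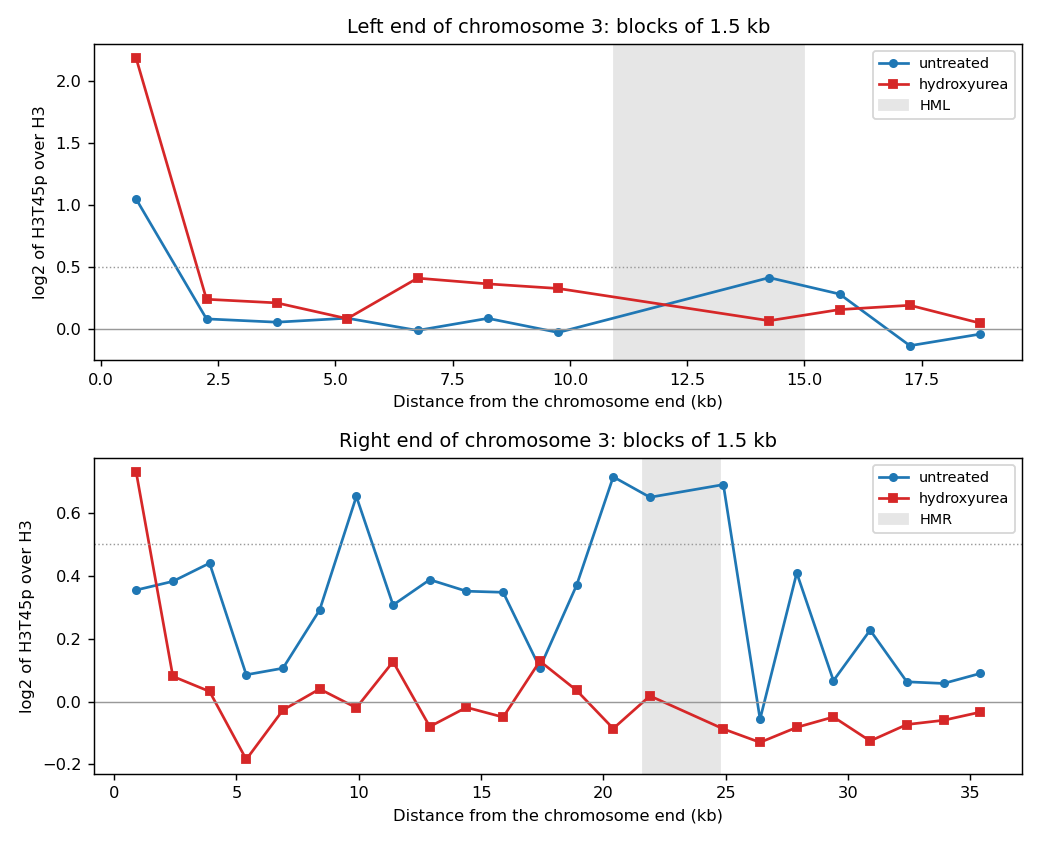
Log2 ratio of H3T45p over H3 in blocks of 1.5 kb (y axis) against distance from the end of chromosome 3 in kb (x axis) for the left end (top) and the right end (bottom), with HML and HMR in grey; the dotted line is the size used for calls, 0.5, and the y axes differ. The untreated line runs above the hydroxyurea line in 21 of 23 blocks at the right end, with 4 untreated blocks between 0.65 and 0.72, while at the left end it does so in 3 of 11.

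Ratios follow the H3 level across the genome, and low H3 goes with HML and HMR. Over all blocks in the lowest of 10 classes of H3 signal the median log2 ratio was 0.14 in untreated cells and -0.04 in hydroxyurea. The 8 right-end blocks of that class had medians of 0.55 and -0.08. Of the 23 right-end blocks 22 were above the median of their H3 class in untreated cells, by 0.27 in the median, and 9 were in hydroxyurea. With the class median subtracted in each window, HMR had 0.53 in untreated cells and a change of -0.74. HML had -0.01 in untreated cells under the same subtraction.

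The right end was set beside other chromosome ends over the bases from 3 to 20 kb, which leaves out the terminal signal. Of 32 ends 30 had enough kept windows. The right end of chromosome 3 had a log2 ratio of 0.32 in untreated cells, the highest of the 30, and 0.00 in hydroxyurea, in place 15. Its change of -0.32 was the lowest of the 30, as was its H3T45p change of -0.48, while its H3 change of -0.16 was in place 13. Its untreated H3 signal of 284 was in place 25. Over 0 to 20 kb, with the terminal signal included, its untreated ratio of 0.33 was in place 2, behind 0.46 at the right end of chromosome 8, its change of -0.24 in place 30 and its H3T45p change in place 29. The next highest end in untreated cells, the right end of chromosome 12, had 0.30 and kept 0.39 in hydroxyurea. The medians over the 30 ends were -0.02 in untreated cells and 0.00 in hydroxyurea.

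The left end of chromosome 3 stood out for H3 instead. Its H3 change of 0.25 was the highest of the 30 ends and its H3T45p change of 0.42 the second, behind 0.51 at the right end of chromosome 9. The median end had an H3 change of -0.19 and an H3T45p change of -0.22. The higher H3 on the left was not limited to the end. From 20 to 36 kb the H3 change was 0.24, in place 2 of 32. In bins of 15 kb it was above 0 from 1 to 150000, with 0.21 in the first bin and 0.37 in that from 75001. From 3 to 20 kb the log2 ratio of the left end was 0.04 in untreated cells and 0.21 in hydroxyurea, in places 9 and 4. From 20 to 36 kb, a range that holds HMR, the right end of chromosome 3 was the highest of 32 ends in untreated cells, at 0.18. Its change of -0.26 was in place 31, as was its untreated H3 signal of 244. The right end of chromosome 12 had the lowest H3 signal there (208), a ratio of 0.13 in place 3 and the lowest change (-0.31). The part of the H3 level in this order was not tested.

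**Figure D4:**
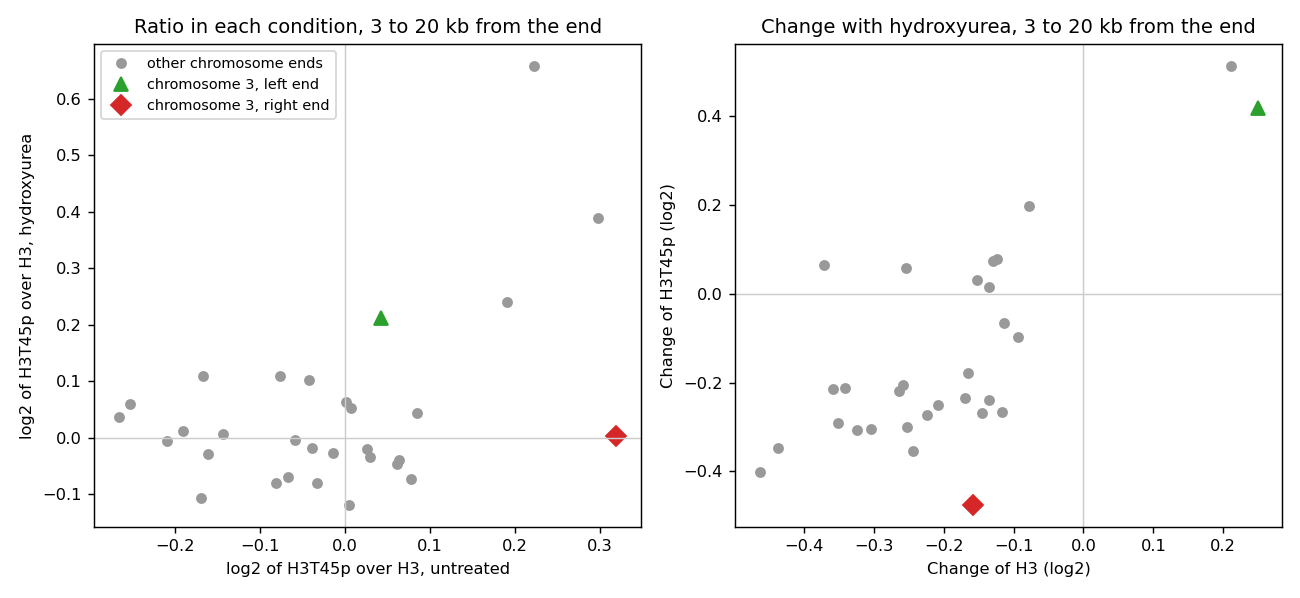
Each point is 1 of 30 chromosome ends, over bases 3 to 20 kb from the end. Left, log2 ratio of H3T45p over H3 in hydroxyurea (y axis) against untreated cells (x axis); right, log2 change of H3T45p (y axis) against that of H3 (x axis). The right end of chromosome 3 lies farthest right at 0.32 and lowest at -0.48, and the left end has the highest H3 change, at 0.25.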

How the data were processed

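The deposited files give signal in 150 bp windows for all 4 libraries and, for H3T45p, the authors' peaks as positions only. Within a library every signal was a whole multiple of its smallest value above 0 (100% of values, within 0.001 of a read), so reads were recovered. BWA 0.5.9-r16 and DESeq are named, without a role, per the submitters' processing notes. No input library was used here. Segment ratios used summed signals of kept windows without a pseudocount; blocks used the deposited signal with a pseudocount of 10% of the median. A count test was not run, since 1 library per group leaves 0 residual degrees of freedom. Named were the 3 windows with the highest and lowest ratio or change per region, blocks past 0.5 and all peaks; other windows and blocks were named after their values were seen. The members and lists were chosen with earlier results of these data known. The block step was tested on simulated data. Python 3.11.15, numpy 2.4.6, pandas 2.3.3, scipy 1.17.1 and matplotlib 3.10.9 were used. RefSeq R64 gave gene names and order only. Alternatives were other pseudocounts, H3 minima, scalings, locus limits and block starts. Those with 10 or more reads in every library, without the stretch within HMR, and with sides of 3 kb were added after the data had been seen.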

Additional observations from a re-analysis of the deposited data

How the results depend on the processing

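HMR kept its direction under every alternative run: its log2 ratio ran from 0.38 to 1.00 in untreated cells, from -0.35 to -0.04 in hydroxyurea, and its change from -1.21 to -0.49. HML did not: its untreated ratio ran from -0.01 to 0.47 and its change from -0.38 to 0.32. MAT ran from -0.37 to 0.07 in untreated cells, and its change from 0.12 to 0.42. The cause of these moves was not tested. An H3 minimum of 50% of the median left no window at HML or HMR, so it gave no value there. No paired analysis was possible because the hydroxyurea libraries share only the number 1 and the untreated libraries only the number 2. Differences between conditions have no replicate check, and few reads at HML and HMR limit their precision.

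Values below are log2 ratios in untreated cells unless named as changes or as hydroxyurea. With a pseudocount of 10% HMR was 0.64 and HMR minus MAT 0.93. With a pseudocount of 50% MAT was -0.23, HMR 0.38 (change -0.49), HML minus MAT 0.35, HMR minus MAT 0.61 (change -0.76), HMR minus its sides 0.20 (change -0.30), and 1 member block was called higher (7 of all 7697 blocks) and 1 lower for the change (1 of all). Without the H3 minimum HML was 0.47, 0.094 in hydroxyurea and -0.38 as change. HML minus MAT was then 0.78, 0.027 and -0.76, and HML minus its sides 0.42, -0.12 and -0.54. With means of window ratios MAT was -0.13 (change 0.22), HML minus MAT 0.38 and HMR minus MAT 0.93. Scaled to equal nuclear reads, MAT was -0.18 (change 0.20) and HMR 0.92.

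With H3 class medians subtracted HML was -0.0077 (change 0.32), MAT -0.12 (change 0.24), HMR 0.53 (change -0.74), HML minus MAT 0.11 (change 0.082), HMR minus MAT 0.65 (change -0.98), HML minus its sides -0.064 (change 0.16) and HMR minus its sides 0.28 (change -0.44). With loci widened by 450 bp the values in hydroxyurea were 0.11 at HML, -0.050 at HMR, -0.038 for HML minus MAT, -0.11 for HML minus its sides and -0.019 for HMR minus its sides, and the change of HMR was -0.83. Narrowed by 450 bp, MAT was 0.066, 0.19 in hydroxyurea and 0.12 as change, HML minus MAT 0.12 (change 0.0056), and HMR minus MAT 0.66, -0.49 in hydroxyurea and -1.15 as change.

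With 10 or more reads in every library HML was 0.45, 0.11 in hydroxyurea and -0.34 as change, HML minus MAT 0.76, 0.048 and -0.72, and HML minus its sides 0.40, -0.10 and -0.50. Without the stretch from 293551 HMR was 1.00 and -0.040 in hydroxyurea, HMR minus MAT 1.31 and -0.11, and HMR minus its sides 0.74 and -0.012. With an H3 minimum of 50%, which left 33 member blocks of 7547, 2 were called higher in untreated cells (6 of all), and 2 higher (406 of all) and 1 lower (5 of all) for the change. Blocks shifted by 5 windows gave 2 of 39 higher for the change (424 of all 7703). Centring on the genome median gave 8 of 39 lower for the change (77 of all 7697).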

Other observations

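Bins of 15 kb along chromosome 3 set the untreated excess of H3T45p at the right end beside the rest of the chromosome. From 270001 to 285000 the log2 ratio was -0.18 in untreated cells with a change of 0.08. From 285001 to 300000, the bin with HMR, it was 0.27 with a change of -0.31, and from 300001 to 315000 it was 0.34 with a change of -0.34. The 3 bins from 210001 to 255000 had untreated ratios of -0.54, -0.35 and -0.40. The bins are too wide to place the turn of sign. Blocks of 1.5 kb from 280501, 282001 and 283501, before the bin with HMR, already had 0.09, 0.06 and 0.06. A later block, from 289501, had -0.06. H3 was higher in hydroxyurea in every bin from 1 to 150000, by 0.14 to 0.37.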
